A study of Mus musculus with 6 samples.

Results

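The 10 genes described here belong to the ATF4 stress response and to serine synthesis: Atf4, Ddit3, Asns, Chac1, Trib3, Sesn2, Psat1, Phgdh, Slc7a11 and Ddit4. They were chosen by symbol, with earlier results of these data known, and all 10 were found among the 43309 genes of the deposited count table. The table covers 6 libraries of mouse embryonic stem cells (mESCs), which grow as lines and can form the tissues of the embryo, made from 2 μg of total RNA with the TruSeq Stranded mRNA kit and 8 PCR cycles. The control group holds 3 lines labelled Zbtb24 wild-type (2lox/+), and the other group holds 3 lines labelled Zbtb24 knockout (1lox/1lox). Both groups are of the J1 (129SV) background and were cultured on gelatin without feeder cells in medium with serum. The control lines thus also carry a loxP-modified Zbtb24 allele, and recombination of its loxP sites turns such an allele into 1lox. Each line gave 1 library, and the lines of a group are described as independently derived clones. A p-value here sets the difference between the groups against the spread between the libraries of a group. In pairs of libraries of a group, that spread was 1.14 to 2.24 times counting noise (chi-square per degree of freedom). Whether so small a spread stands for that between independent clones was not tested.

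ATF4 is a basic leucine zipper (bZIP) transcription factor. When amino acids are scarce, unfolded proteins accumulate or heme is low, kinases phosphorylate the translation factor eIF2α, general translation falls, and the ATF4 mRNA is translated more because of short open reading frames ahead of its coding sequence. ATF4 then raises transcription of genes for amino acid synthesis and uptake, tRNA charging and redox balance, and of brakes on growth. The serine pathway branches from glycolysis at PHGDH, continues through PSAT1 and PSPH, and feeds glycine and one-carbon metabolism. The libraries measure mRNA only, so neither ATF4 protein nor eIF2α phosphorylation was observed.

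Counts summed to between 25042261 and 28838924 per library. Zbtb24, the targeted gene, went against the labels. It had 510, 512 and 489 counts in the control libraries and 888, 925 and 1039 counts in those labelled knockout. Its log2 fold change was 0.99 (SE 0.05), with an adjusted p of 4.32e-23. These are counts over the whole gene, so they do not show whether the recombined part is present, and the group is called by its label throughout. Of 16823 genes tested, 69.5% were called at an adjusted p (FDR) of at most 0.05 by edgeR's quasi-likelihood test, with 34.4% called higher in those labelled knockout and 35.2% called lower. The 3 libraries of a group differed little, and 71.5% of the genes tested had groups that did not overlap. The median log2 fold change was 0.50 for the genes of chromosome 1 and -0.20 for those of chromosome 8, where no member lies, and the median over all genes tested was 0.00. Markers of mESCs were present, and 7 of 8 were called higher and 1 was called lower. The log2 fold changes of the 7 ran from 0.20 for Pou5f1 to 1.90 for Klf4, with 1.13 for Nanog. The genes within 10 Mb had medians of -0.01 for Pou5f1, -0.03 for Klf4 and 0.53 for Nanog, which lies on chromosome 6. Zfp42 was the marker called lower, at -0.77, and the genes within 10 Mb of it on chromosome 8 had a median of -0.43. Of 11 tested markers of other cell types, 2 were higher, 7 were lower and 2 were not called. The largest fall among them was that of Col1a1, a collagen of fibroblasts, from 41.1 ± 2.2 to 3.93 ± 0.49 TMM-normalized cpm (counts scaled to a common library size). The summed level of these markers was 358 to 372 cpm in the control libraries and 366 to 374 cpm in those labelled knockout. Most of this sum came from 2 genes called higher, Tubb3 (176 to 236 cpm in the group means) and Pecam1 (109 to 119 cpm). The sum thus does not follow the 7 markers called lower. Whether the RNA of these 2 genes came from other cells or from the mESCs was not tested. Ptprc, which defines blood cells, had at most 5 counts in any library. In these bulk libraries, a change in the number of cells of a type and a change in RNA per cell cannot be told apart, and the part of either in the results below was not tested.

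Among the 10 genes, 6 were higher, 1 was lower and 3 were not called, beside 34.4% and 35.2% of all genes tested. Asns, Psat1, Atf4, Phgdh, Ddit4 and Trib3 were higher, Sesn2 was lower, and Ddit3, Chac1 and Slc7a11 had no call. The median of the 10 log2 fold changes was 0.25, in a range of -0.26 to 0.92. The groups did not overlap for 7 of the 10, the same 7 that were called, against 71.5% of all genes. No member changed 2-fold or more with a call, which 17.0% of all genes tested did. The 10 genes together took 0.0775%, 0.0794% and 0.0783% of the control counts, against 0.117%, 0.115% and 0.111% in the libraries labelled knockout.

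ATF4 and its bZIP partners bind the C/EBP-ATF response element, for which the promoters of the 10 genes were searched. The letters were TGATGNAA on both strands, in RefSeq windows from 250 bases before to 50 bases after each transcription start (GRCm38.p6, the build of mm10). The windows of Asns, Chac1, Trib3 and Slc7a11 held a match, or 4 of 10 genes, and Slc7a11 held 2. Matches were present in 3.97% of the 32851 windows and in 4.51% of the 27025 genes of the table. Positions are counted from the RefSeq start, which differs from the GENCODE gene ends given below: by those, the Asns match lies inside the gene and the Trib3 match lies before it. These 4 stretches are shown because the genes that hold the letters include both the member that rose most and members that were not called. Capitals mark the match, and each stretch runs 5′ to 3′ on the strand of its gene. The Asns stretch (minus strand, chr6:7693225-7693459) ends with its match, at -23 to -16 from the RefSeq start. The Chac1 stretch (plus strand, chr2:119350992-119351241) has its match at -193 to -186. The Slc7a11 stretch (minus strand, chr3:50443614-50443863) has matches at -66 to -59 and -47 to -40. The Trib3 stretch (minus strand, chr2:152344028-152344057) has its match at 15 to 22, after the RefSeq start.
Asns: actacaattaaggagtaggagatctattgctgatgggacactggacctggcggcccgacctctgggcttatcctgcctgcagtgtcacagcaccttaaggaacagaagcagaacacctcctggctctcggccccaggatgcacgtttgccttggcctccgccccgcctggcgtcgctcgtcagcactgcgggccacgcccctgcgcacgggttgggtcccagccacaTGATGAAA
Chac1: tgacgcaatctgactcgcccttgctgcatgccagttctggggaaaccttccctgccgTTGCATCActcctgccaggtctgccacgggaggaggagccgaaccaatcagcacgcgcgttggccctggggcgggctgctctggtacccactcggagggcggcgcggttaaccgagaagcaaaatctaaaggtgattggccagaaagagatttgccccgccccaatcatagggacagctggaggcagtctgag
Slc7a11: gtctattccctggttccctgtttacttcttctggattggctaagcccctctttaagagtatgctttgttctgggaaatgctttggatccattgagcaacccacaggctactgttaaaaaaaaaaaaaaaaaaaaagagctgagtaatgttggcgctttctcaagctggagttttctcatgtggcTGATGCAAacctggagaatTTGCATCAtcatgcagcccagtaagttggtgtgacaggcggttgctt
Trib3: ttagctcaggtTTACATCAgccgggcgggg
The cAMP response element (TGACGTCA, both strands) was found in none of the 10 genes' windows and in 1.79% of all windows. The ER stress response element (CCAAT, 9 bases and CCACG, both strands) was also found in none of them and in 0.119% of all windows. A match here means these letters in this window, not a bound site.

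Atf4 (ENSMUSG00000042406, mm10 chr15:80255184-80257541, plus strand), the regulator itself, was higher in the libraries labelled knockout. Its levels were 95.6, 99.1 and 93.6 cpm in the control libraries and 153, 149 and 152 cpm in those labelled knockout. All 3 libraries labelled knockout lay above all 3 control libraries, and the replicates of each group sat close together. The log2 fold change was 0.65 (SE 0.029), a 1.57-fold rise, with an adjusted p of 1.96e-25 by edgeR's quasi-likelihood test. With each library left out in turn it stayed between 0.63 and 0.67.

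Ddit3 (ENSMUSG00000025408, chr10:127290774-127296288, plus strand) encodes CHOP, the bZIP factor of prolonged stress that pairs with ATF4. It was low, with 91, 124 and 109 counts in the control libraries and 126, 90 and 127 counts in those labelled knockout, or 3.91 ± 0.64 against 4.33 ± 0.6 cpm (SD, n = 3 lines each). The groups overlapped, since the lowest count of all belonged to a library labelled knockout and the second highest level in cpm to a control library. The log2 fold change was 0.15 with a 95% interval from -0.09 to 0.39 (adjusted p = 0.263), and leaving out single libraries gave 0.03 to 0.27. The gene shares its locus with Mars on the opposite strand, which was much more abundant, and the authors' counting used the strand.

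The serine pathway gave calls at each step measured. Phgdh (ENSMUSG00000053398, chr3:98313170-98339990, minus strand), the first enzyme, had 119, 113 and 119 cpm in the control libraries and 156, 160 and 148 cpm in those labelled knockout. The groups were apart, and the log2 fold change was 0.40 (SE 0.029, adjusted p = 6.3e-17), a 1.32-fold rise. Psat1 (ENSMUSG00000024640, chr19:15904678-15947337, minus strand), the transaminase of the next step, had 243, 251 and 245 cpm in the control libraries and 409, 410 and 395 cpm in those labelled knockout. Every library labelled knockout exceeded every control library by far more than the spread within a group. Its log2 fold change was 0.72 (SE 0.025, adjusted p = 7.93e-30), a 1.64-fold rise. Psph, the phosphatase that completes the pathway, is not among the 10 genes and rose from 25.9 ± 1.4 to 34.5 ± 1.3 cpm, a log2 fold change of 0.41 (adjusted p = 1.27e-10).

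Asns (ENSMUSG00000029752, chr6:7675169-7693254, minus strand), which makes asparagine from aspartate and glutamine, had the largest change of the 10 genes. Its levels were 159, 162 and 163 cpm in the control libraries and 314, 308 and 297 cpm in those labelled knockout. The control libraries lay within a few cpm of each other, and those labelled knockout were all far above them. The log2 fold change was 0.92 (SE 0.026), a 1.9-fold rise, with an adjusted p of 2.81e-33. In size this change was above that of 80.5% of all genes tested. The genes of chromosome 6 had a median of 0.16, and the difference of Asns from it was 0.76. The 37 genes within 10 Mb on either side had a median of -0.16, which gives a difference of 1.08. Its promoter match, shown above, lies just ahead of the RefSeq start.

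Slc7a11 (ENSMUSG00000027737, chr3:49892526-50443614, minus strand), the cystine carrier of the cystine-glutamate exchanger xCT, was close to undetected. It had 13, 12 and 5 counts in the control libraries and 8 in each library labelled knockout, so a single count moved its level by a large share. The groups overlapped, and the log2 fold change of -0.25 had an interval from -1.08 to 0.59 (adjusted p = 0.623). With each library left out in turn it ran from -0.56 to -0.03. The gene reached the minimum of 10 counts only in control lines 1 and 2, and no difference was detected at this depth. What size of difference could have been detected was not tested.

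Chac1 (ENSMUSG00000027313, chr2:119351229-119354381, plus strand) encodes an enzyme that degrades glutathione. It had 93, 128 and 94 counts in the control libraries and 93, 93 and 120 counts in those labelled knockout. The groups overlapped almost wholly, with means of 3.8 ± 0.75 and 3.86 ± 0.35 cpm (SD, n = 3 lines each). On the log2 scale the change was 0.03, with an interval from -0.22 to 0.28 (adjusted p = 0.841), and its sign turned when some single libraries were left out (-0.06 to 0.20) and when only library totals were used for scaling (-0.02).

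Trib3 (ENSMUSG00000032715, chr2:152337422-152344032, minus strand) encodes a pseudokinase that is induced by ATF4 and CHOP and restrains them. Its levels were 12.8, 13.4 and 12.4 cpm in the control libraries and 14.7, 14.7 and 13.8 cpm in those labelled knockout. The groups were apart by less than 1 cpm. The log2 fold change of 0.16 (SE 0.064) had an adjusted p of 0.026. This call was the weakest of the 7 and was kept in 2 of the 6 fits that left out a library. It was lost without control line 1 (adjusted p = 0.0573), control line 3 (adjusted p = 0.105), or line 1 (adjusted p = 0.0773) or line 2 (adjusted p = 0.0783) of those labelled knockout. Scaling by library totals (adjusted p = 0.125) and DESeq2 (adjusted p = 0.117) also ended it, as did thinning (adjusted p = 0.334) and a filter at a mean of 100 counts (adjusted p = 0.0633).

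The remaining members restrain the growth kinase mTORC1 and went in opposite directions. Ddit4 (ENSMUSG00000020108, chr10:59949669-59951834, minus strand), which encodes REDD1, had 33.5, 36.7 and 34.5 cpm in the control libraries and 49.6, 40 and 42.9 cpm in those labelled knockout. The groups were apart, but line 1 of those labelled knockout stood well above the other two. On the log2 scale the rise was 0.34 (SE 0.05, adjusted p = 4.7e-08), and it stayed between 0.25 and 0.40 with each library left out in turn. Sesn2 (ENSMUSG00000028893, chr4:132492032-132510501, minus strand), the leucine sensor sestrin 2, had 94.7, 94.8 and 95.1 cpm in the control libraries and 80.9, 79.9 and 77.2 cpm in those labelled knockout. It was the only one of the 10 genes called lower. Its log2 fold change was -0.26 (SE 0.031, adjusted p = 2.77e-10), a level 1.2-fold lower.

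**Figure D1:**
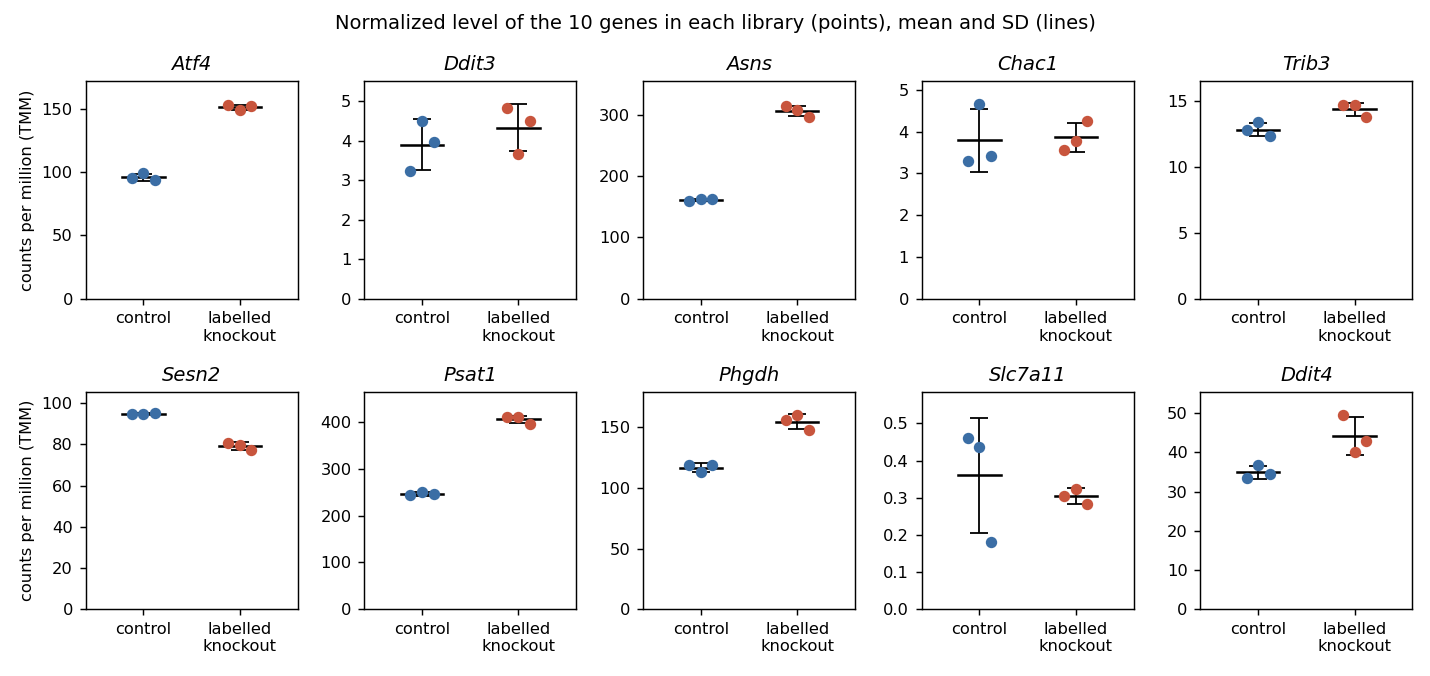
Level of each of the 10 genes in every library, in TMM-normalized cpm, with 1 panel a gene and each axis starting at 0. Points are single libraries, long lines are group means and error bars are the SD over 3 lines. The groups are apart for Asns, Psat1, Atf4, Phgdh, Ddit4, Trib3 and Sesn2 and overlap for Ddit3, Chac1 and Slc7a11.

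In the plot of levels by library, the genes without a call are the least abundant. These 3 genes without a call had at most 128 counts in any library, and the called genes had at least 341 counts in each.

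Compared per length, in cpm per kilobase of the merged exons, the control libraries put Asns (59.0 ± 0.65), Psat1 (57.9 ± 0.99), Phgdh (47.0 ± 1.3) and Atf4 (40.8 ± 1.2) at the top (SD, n = 3 lines each). Sesn2 (27.3), Ddit4 (19.9), Trib3 (6.06), Chac1 (2.32), Ddit3 (2.28) and Slc7a11 (0.0259) followed. Asns and Psat1 overlapped in the control libraries, as did Chac1 and Ddit3, and the other neighbours in this order did not. In the libraries labelled knockout, Asns (112 ± 3.2) stood apart above Psat1 (95.1 ± 1.9). Atf4 (64.1 ± 0.93) and Phgdh (62.1 ± 2.4) overlapped there, and so did Ddit4 (25.2) with Sesn2 (22.8) and Ddit3 (2.53) with Chac1 (2.36). The merged exons of Slc7a11 span many isoforms, 13922 bases in all, which lowers its value per length.

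**Figure D2:**
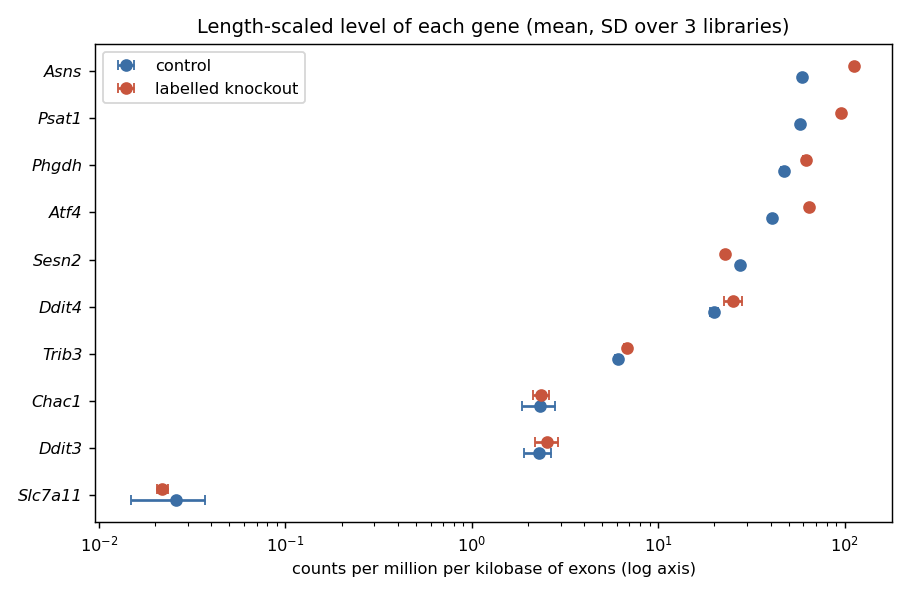
Levels of the 10 genes per length, in cpm per kilobase of merged exons on a log axis, in order of the control mean. Points are group means and bars the SD over 3 lines. The biosynthetic enzymes and Atf4 lie at the top in both groups and Slc7a11 lies far below the other 9.

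The dispersion of these libraries was low, near 0.000402 (a coefficient of variation of 2%), and differences of a few percent were called. At a fixed dispersion of 0.04 in an exact test, a spread of 20% between replicates, 25.8% of all genes tested were called. Asns (adjusted p = 0.00083), Psat1 (adjusted p = 0.013) and Atf4 (adjusted p = 0.0269) then kept their calls. The other 4 called genes did not, with adjusted p of 0.232 for Phgdh, 0.35 for Ddit4, 0.517 for Sesn2 and 0.741 for Trib3. At a dispersion of 0.16, 8.65% of all genes and none of the 10 were called.

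**Figure D3:**
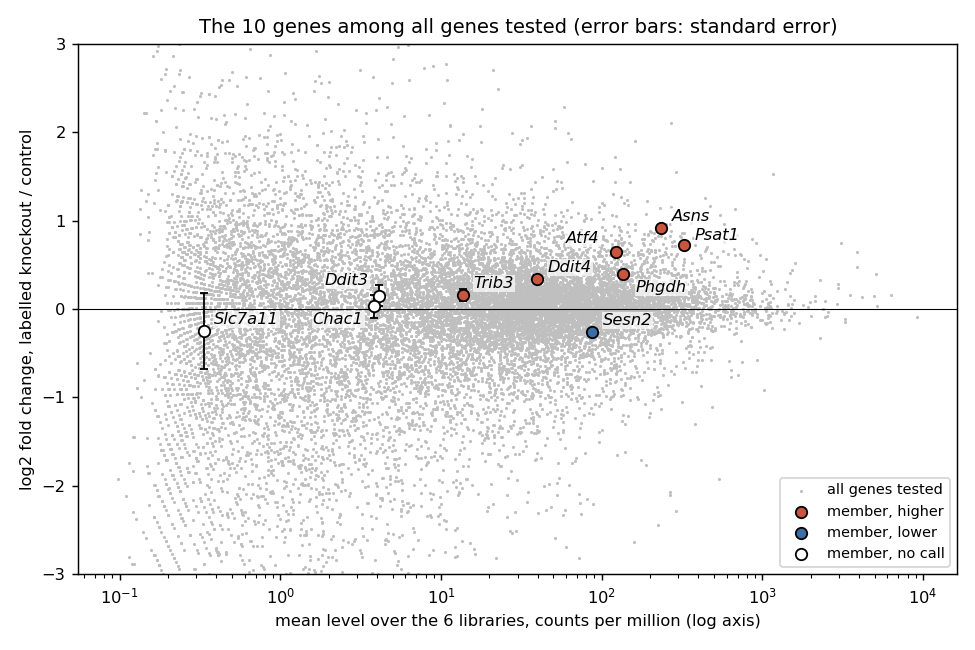
Log2 fold change (labelled knockout minus control) against mean level for all genes tested, on a log axis in cpm, with the 10 genes named, error bars of 1 SE and the y axis limited to 3 either way, which leaves 407 genes outside. The 10 genes lie between -0.26 and 0.92, within the range of many genes of their level.

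Other genes of the pathway were taken from lists of known roles, which were chosen with earlier results of these data known. Each list count below stands beside 34.4% called higher and 35.2% called lower among all genes tested. Upstream, of 9 genes that sense stress or set eIF2 phosphorylation, 5 were higher, 3 lower and 1 not called, with a median log2 fold change of 0.18. Eif2ak4, the kinase GCN2 that senses uncharged tRNA, rose from 25.4 ± 0.42 to 34.1 ± 0.63 cpm (log2 fold change 0.42, adjusted p = 1.77e-11). Impact, an inhibitor of GCN2, fell from 298 ± 3.8 to 151 ± 3.3 cpm (-0.98, adjusted p = 1.51e-34), the largest change of this list. Eif2ak1, the heme-regulated kinase, rose by 0.24 (adjusted p = 1.53e-09). Eif2ak3, the kinase PERK of the endoplasmic reticulum, was at -0.06 and not called (adjusted p = 0.21). Ppp1r15b, which directs a phosphatase to eIF2α, rose by 0.32 (adjusted p = 3.32e-14), less than the median of 0.48 of its neighbourhood on chromosome 1.

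Of 7 partner and related bZIP factors, 2 were higher, 4 lower and 1 not called, with a median of -0.28. Atf5, a factor controlled in translation much as ATF4 is, fell from 16.4 ± 0.43 to 7.67 ± 0.86 cpm (-1.09, adjusted p = 2.22e-18). Atf3, a stress-induced factor downstream of ATF4, fell from 2.13 ± 0.22 to 0.949 ± 0.051 cpm (-1.16, adjusted p = 4.74e-07), whereas its neighbours on chromosome 1 had a median of 0.53. Nfe2l2, the antioxidant factor NRF2, fell by 0.28 on the log2 scale (adjusted p = 5.54e-09). Cebpg, a heterodimer partner of ATF4, was higher by 0.11 (adjusted p = 0.0238), a call that library totals (adjusted p = 0.215) and DESeq2 (adjusted p = 0.106) ended. Thinning (adjusted p = 0.361), a filter at a mean of 100 counts (adjusted p = 0.0905) and leaving out control line 1 (adjusted p = 0.0739) or line 1 (adjusted p = 0.059) or line 3 (adjusted p = 0.133) of those labelled knockout ended it too.

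Of 9 further genes of serine, glycine and one-carbon metabolism, 6 were higher and 3 lower (median 0.21). Shmt2, which splits serine in mitochondria, rose from 166 ± 5.4 to 249 ± 8.7 cpm (0.58, adjusted p = 4.15e-24), and Mthfd1l, which releases formate there, rose by 0.26 (adjusted p = 2.58e-10). Mthfd2, a mitochondrial folate enzyme, was higher by only 0.11 (adjusted p = 0.00173) and lost the call with library totals (adjusted p = 0.0741). Gldc, the glycine decarboxylase, moved the other way, from 335 ± 5.4 to 185 ± 2.2 cpm (-0.86, adjusted p = 9.33e-33).

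Of 6 genes of proline, alanine and aspartate metabolism, 3 were higher, 1 lower and 2 not called (median 0.38). Pycr1, the last enzyme of proline synthesis, rose from 14.5 ± 0.54 to 30.9 ± 1.1 cpm (1.09, adjusted p = 8.77e-24). Aldh18a1, the first enzyme of that route, rose by 0.69 (adjusted p = 2.81e-22), and Pck2, the mitochondrial PEP carboxykinase, by 0.71 (adjusted p = 1.77e-14). Got1, the cytosolic aspartate transaminase, was at -0.07 (adjusted p = 0.0154) with groups that overlapped. That call was lost without control line 2 (adjusted p = 0.0864), or line 1 (adjusted p = 0.0888) or line 2 (adjusted p = 0.0931) of those labelled knockout.

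Of 20 cytosolic aminoacyl-tRNA synthetases, which charge tRNAs with amino acids, 17 were higher, 1 was lower and 2 were not called. Their median was 0.28, and 34.4% of all genes tested were called higher and 35.2% lower. The 3 largest rises, Dars (0.93), Eprs (0.84) and Farsb (0.65), lie on chromosome 1, where their neighbours had medians of 0.54, 0.55 and 0.54. Without the genes of chromosomes 1 and 8, 13 of 14 were higher and none lower, and the median was 0.23. Cars, on chromosome 7, rose by 0.52 (adjusted p = 5.95e-19). At a dispersion of 0.04, 3 of these 20 genes were called, beside 25.8% of all genes tested. Those 3 were Dars, Eprs and Farsb, all on chromosome 1.

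Of 8 other amino acid transporters, 3 were higher, 2 lower and 3 not called (median 0.16). Slc1a5, a glutamine carrier, rose from 30.3 ± 1.5 to 57.7 ± 1.7 cpm (0.93, adjusted p = 2.62e-25), and Slc7a1, a carrier of cationic amino acids, rose by 0.61 (adjusted p = 1.42e-20). Slc38a2, the amino acid carrier SNAT2, fell from 533 ± 9.4 to 290 ± 8.6 cpm (-0.87, adjusted p = 2.54e-33), and Slc1a4 fell by 0.44 on the log2 scale (adjusted p = 3.64e-08). Slc3a2, the heavy chain that pairs with the Slc7a11 product, was at 0.03 (adjusted p = 0.344).

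Of 8 cysteine and glutathione genes, 3 were higher, 4 lower and 1 not called, with a median of -0.26 that became 0.01 without the genes of chromosomes 1 and 8. Cth, which makes cysteine from cystathionine, fell from 41.6 ± 0.32 to 21.6 ± 0.63 cpm (-0.94, adjusted p = 5.43e-24). Gclm, a subunit of the enzyme that begins glutathione synthesis, fell by 0.71 on the log2 scale (adjusted p = 1.6e-24). Gsr, glutathione reductase, was at -0.62 (adjusted p = 1.08e-24), beside a median of -0.59 of its neighbours on chromosome 8. Ggct, which takes part in glutathione breakdown, rose from 12.9 to 26.4 cpm (1.03, adjusted p = 6.43e-22).

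Of 12 other stress targets and brakes on mTORC1, 11 were tested, and 3 were higher, 7 lower and 1 not called (median -0.44, and -0.12 without chromosomes 1 and 8). Fgf21, a hormone gene of the response, was not tested because it had at most 3 counts in any library. Stc2, a secreted glycoprotein, rose from 5.18 ± 0.12 to 16.4 ± 1.9 cpm (1.66, adjusted p = 5.85e-23). Ddit4l, the paralog of Ddit4, fell from 11.5 ± 0.61 to 3.56 ± 0.36 cpm (-1.68, adjusted p = 2.04e-21), opposite to Ddit4. Trib1 and Trib2, the relatives of Trib3, had log2 fold changes of -0.96 (adjusted p = 2.81e-16) and -0.82 (adjusted p = 5.42e-09), both lower.

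Of 16 genes in the arms of the unfolded protein response outside ATF4, 14 were lower and 2 higher, beside 35.2% and 34.4% of all genes tested. Their median was -0.21 with and without chromosomes 1 and 8. Hspa5, the chaperone BiP, fell from 672 ± 8.9 to 572 ± 3.4 cpm (-0.23, adjusted p = 7.2e-13), and Calr, the chaperone calreticulin, fell by 0.74 on the log2 scale (adjusted p = 4.29e-31). The cochaperone genes Dnajc3 and Dnajb9 fell by 0.54 (adjusted p = 2.33e-16) and 0.44 (adjusted p = 3.87e-09). Xbp1, the factor of the IRE1 arm, fell by 0.10 (adjusted p = 0.00317), a call lost without line 3 of those labelled knockout (-0.07, adjusted p = 0.0536). Atf6, the sensor of the third arm, rose by 0.80 (adjusted p = 4.04e-24), and its neighbours on chromosome 1 had a median of 0.45. At a dispersion of 0.04, 2 of these 16 genes were called, beside 25.8% of all genes tested.

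**Figure D4:**
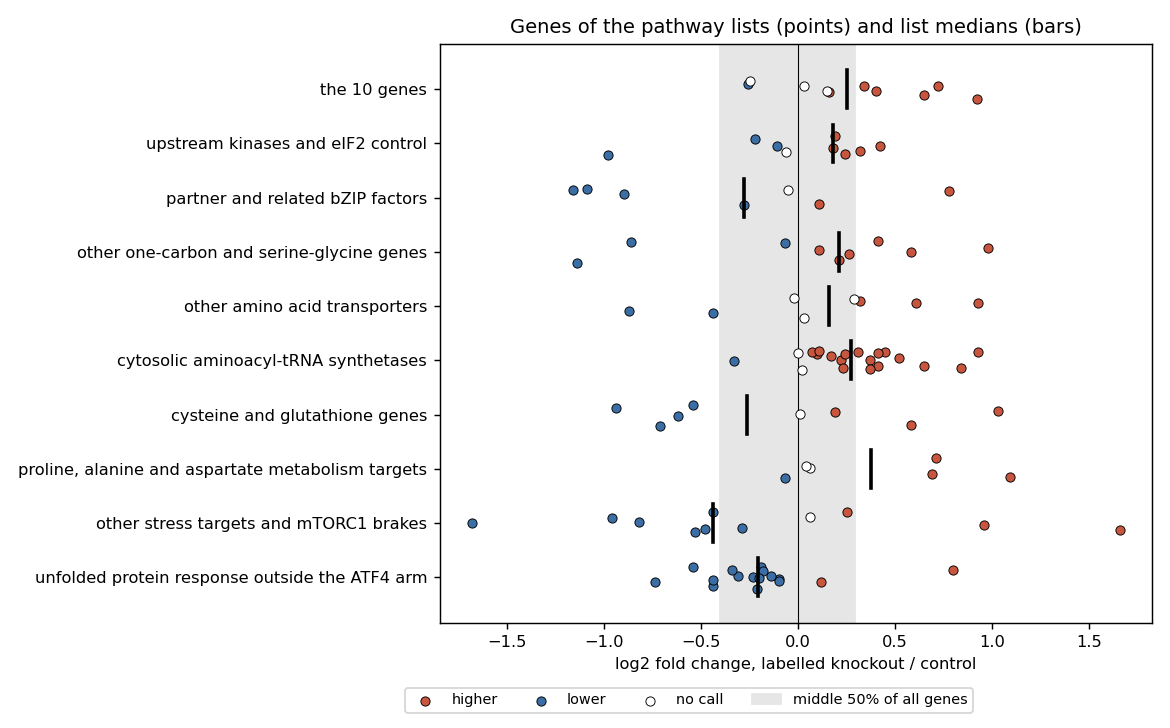
Log2 fold changes (labelled knockout minus control) of the 10 genes and of the genes of each pathway list, 1 point a gene, coloured by call, with a bar at the median of each list and the middle 50% of all genes shaded. The 10 genes have a median of 0.25, the tRNA synthetases lie mostly above 0 (median 0.28) and the unfolded protein response genes mostly below (median -0.21).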

How the data were processed

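Per the labels and the study's methods, the authors removed reads that matched rRNA with Bowtie2 2.1.0, mapped the rest to mm10 with TopHat 2.0.10 and counted fragments per GENCODE Release M4 gene with HTSeq 0.6.1, in the sense direction, dropping fragments with multiple genes or locations. They deposited the raw counts without normalization. Members of gene families with near-identical copies may therefore be under-counted. Symbols, coordinates and merged exon lengths came from GENCODE M21 on the same build, which matched 42425 of 43309 identifiers, and promoter sequences came from RefSeq (GRCm38.p6).

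Genes that reached 10 counts in any of the 6 libraries were tested in R 4.3.3 with edgeR 4.0.16 (TMM scaling, glmQLFit and glmQLFTest, no covariate, Benjamini-Hochberg FDR of at most 0.05 over all 16823 genes). Standard errors are the absolute log2 fold change over the root of F, and 95% intervals take 1.96 standard errors. Levels in cpm are TMM-normalized, except the summed level of the markers of other cell types, which used library totals. Without molecular identifiers, PCR duplicates were counted, and counting error understates the error. The script was tested on simulated data.

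The 10 genes and the lists were chosen with earlier results of these data known. The text names the 10 genes, Zbtb24, and up to 4 called genes per list with a mean of at least 100 counts and the largest absolute log2 fold change. It also names Eif2ak3, Eif2ak4, Atf3, Psph, Shmt2, Mthfd2, Slc3a2, Hspa5 and Xbp1. Fgf21, Ptprc, Col1a1, Tubb3, Pecam1, Nanog, Pou5f1, Klf4 and Zfp42 were named after their values were seen. Alternatives were other scalings, DESeq2 1.42.0, a likelihood ratio test, fixed dispersions, other filters, thinning to 15000000 counts, a replicate block, and leaving out single libraries. Medians without chromosomes 1 and 8, and differences from genes within 10 Mb, were added after the data were seen.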

Additional observations from a re-analysis of the deposited data

How the results depend on the processing

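Asns, Psat1, Atf4, Phgdh, Ddit4 and Sesn2 kept their direction under every alternative and their calls in all 6 fits that left out a library. With a library left out, 5 to 6 members were called higher, 1 lower, the genes called numbered 11059 to 11304, and Zbtb24 was at 0.96 to 1.03. Chac1 reversed with library totals (-0.02), thinning (-0.09) and libraries left out (-0.06 to 0.20), Slc3a2 with library totals (-0.02) and a filter at a mean of 100 counts (-0.00), and the median of the cysteine and glutathione genes without chromosomes 1 and 8 (0.01). The log2 fold change of Eif2ak3 was called with library totals (-0.11, adjusted p = 0.0255). An exact test with a fixed dispersion, which changes the test and the dispersion together, ended most calls. At 0.04 it gave 3 members higher and 0 lower, 4342 genes in all, and 1 gene of the upstream kinases, 3 each of the one-carbon genes, transporters, synthetases and proline, alanine and aspartate genes, 4 each of the bZIP factors and the cysteine and glutathione genes, 5 of the stress targets and 2 of the unfolded protein response. At 0.16 it gave 0 members either way, 1456 genes, 2 stress targets, 2 mESC markers, 2 markers of other cell types and 0 in the other pathway lists, and Zbtb24 (0.99) had an adjusted p of 0.262. Requiring a 2-fold change left 0 members either way and 2865 genes. The filter at a mean of 100 counts left 2 called bZIP factors. The replicate numbers did not pair the libraries (correlations of deviations of 0.00617, 0.0715 and 0.0155), and with the replicate block 6 members were higher, 1 was lower and the genes called numbered 11801. Depth limits Slc7a11, with at most 13 counts in a library. Ddit3 and Chac1 had at most 128 counts in a library, and their 95% intervals ran from -0.09 to 0.39 and from -0.22 to 0.28.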
